A study of Bos taurus with 8 samples.

Results

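The viral RNA sensors studied here are DDX58 (RIG-I, also listed as RIGI), IFIH1 (MDA5), DHX58 (LGP2) and TLR3, together with MAVS, the adaptor of the cytosolic sensors. They were chosen by gene name, as every probe whose name on the array is one of these symbols or RIGI. That gave 12 of 51282 probes, for 5 of the 17050 genes named on the array. The genes were chosen with earlier results of the same arrays known, so their differences are given as a description with standard errors, and no test is read from them.

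RIG-I and MDA5 are cytosolic helicases that bind viral RNA. RIG-I recognises short double-stranded RNA with triphosphate ends and MDA5 long double-stranded RNA, and both pass the signal to MAVS on the outer mitochondrial membrane. LGP2 is a related helicase that lacks the caspase recruitment domains needed for signalling and tunes the other sensors. TLR3 is a membrane receptor that binds double-stranded RNA in endosomes and signals through TICAM1 (TRIF) instead of MAVS. Both routes lead through the kinases TBK1 and IKBKE to the transcription factors IRF3 and IRF7 and to type I interferon, which in turn induces RIG-I, MDA5 and LGP2 in many cell types.

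The cells were primary cultures from bovine eyes that the labels give as Müller glia, the radial glia of the retina, grown for 18 to 21 days. Cells given TAT, the transactivator protein of HIV-1, at 100 ng/ml were measured on 3 arrays (letters A, B and C), cells given gp120, the surface glycoprotein of the HIV-1 envelope, at 60 ng/ml on 3 arrays (A, B and C), and control cells on 2 arrays (A and B), all after 24 h. The extraction text calls the cells astrocytes. The treatment text is the same for every sample and names both proteins together, so groups follow the sample titles alone. The labels do not say whether the letters mark separate cultures or animals, so every p-value below measures only the spread between these samples, which may be technical.

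Levels are log2 of the background-corrected signal of a probe minus the 75th percentile of its array, so that 0 is a signal equal to that percentile, and levels of different probes are not set against each other. Between 55.45% and 64.61% of an array's spots stood well above background, and saturated spots numbered 0 on all arrays. The number of arrays limits the precision: over all kept probes, the 95% interval of a difference reached a median of 0.7 log2 units to either side for each protein against control and 0.63 for TAT minus gp120. Of 11 Müller glia markers matched on the array, 7 were well above background on all 8 arrays, among them GLUL, SLC1A3, VIM and AQP4, whereas RLBP1 and GFAP were so on 2 arrays each and KCNJ10 on 1. Of 15 microglia and macrophage markers 14 were well above background on all 8 arrays, of 8 fibroblast markers 7 and of 5 pericyte markers 5. Since RNA came from whole cultures, fewer cells of a type and less RNA per cell cannot be told apart.

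RIG-I was read by 3 probes, all well above background on all 8 arrays. They lie in exons of the gene on chromosome 8 of HGSC Btau_3.1, the build in the file headers, on the plus strand. The probe nearest the start of the transcript maps to chr8:11664122-11664181, the middle one to chr8:11677642-11680261, where its 60 bases span 2620 bases of genome and so cross a splice junction, and the one nearest the end to chr8:11693221-11693280. They begin at bases 1067, 1970 and 2721 of the transcript used for the array. Their sequences are shown because the 3 probes gave different answers, and the capitals mark the codons of the DECH box, the helicase motif that binds the metal ion used in ATP hydrolysis, which lie at bases 41 to 52 of the first probe.
RIG-I start probe: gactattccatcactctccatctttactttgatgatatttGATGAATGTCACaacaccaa
RIG-I middle probe: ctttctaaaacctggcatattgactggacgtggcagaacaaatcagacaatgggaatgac
RIG-I end probe: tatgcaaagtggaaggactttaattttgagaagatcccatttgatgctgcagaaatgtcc

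On the middle probe, the brightest of the 3, RIG-I had levels of 0.6, 0.24 and 0.15 in TAT cells, 0.03, -0.34 and -0.72 in gp120 cells and 1.29 and 0.33 in control cells. All gp120 arrays lay below all control and all TAT arrays, while TAT and control arrays overlapped. Means were 0.33 ± 0.24 for TAT (SD, n = 3), -0.34 ± 0.38 for gp120 (SD, n = 3) and 0.81 ± 0.68 for control (SD, n = 2), so the order from low to high was gp120, TAT, control, and the upper pair did not differ beyond its spread. The log2 difference was -1.15 for gp120 minus control (SE 0.36, 95% interval -1.98 to -0.33), -0.48 for TAT minus control (SE 0.36, interval -1.3 to 0.35) and 0.67 for TAT minus gp120 (SE 0.32, interval -0.06 to 1.41).

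The gp120 value depended on the control A array. The difference from control was -0.67 without control A and -1.63 without control B. With the letters as a replicate block it was -1.01, with slide row as a block -0.83 and with scan as a block -0.78. A separate scan, at a detector setting of 471 V against 431 V, was used for gp120 B and gp120 C, the lowest arrays on this probe. Within the scan of the other 6 arrays, where gp120 has 1 array, the difference was -0.78, and the part of the scan in the result was not tested further. TAT minus control was 0 without control A.

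The other RIG-I probes did not follow the middle one. The end probe read 0, -1.1 and -0.62 in TAT cells, -0.28, 0.19 and -0.38 in gp120 cells and 0.55 and -0.08 in control cells. Here TAT was the lowest group, with a difference from control of -0.81 (SE 0.38, interval -1.68 to 0.06), while gp120 minus control was -0.39 (SE 0.38), and groups overlapped in every comparison. The start probe, which covers the helicase motif, read -2.12, -2.46 and -1.84 in TAT cells, -2.35, -2.17 and -1.8 in gp120 cells and -1.9 and -2.38 in control cells. Its differences were 0 (SE 0.29) for TAT minus control and 0.03 (SE 0.29) for gp120 minus control, with intervals of -0.67 to 0.67 and -0.64 to 0.71.

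A further 2 probes carry a RIG-I accession under another name and stand outside the choice by gene name. One, at chr8:11694183-11694242, had a higher signal than the middle probe on every array. It read 1.43, 1.37 and 1.91 in TAT cells, 1.53, 1.95 and 1.84 in gp120 cells and 1.39 and 2.19 in control cells. Its differences were -0.22 (SE 0.31) for TAT minus control and -0.01 (SE 0.31) for gp120 minus control. The other gave -0.37 (SE 0.44) and 0.32 (SE 0.44) for the same comparisons. The lower RIG-I signal in gp120 cells was thus largest on the middle probe, and of the 4 other probes only the end probe had a difference below -0.1. Probes that point to opposite signs are common on this array: among 7031 genes with 2 or more kept probes, 40.3% had such probes for TAT minus control, 44.3% for gp120 minus control and 46.8% for TAT minus gp120.

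**Figure D1:**
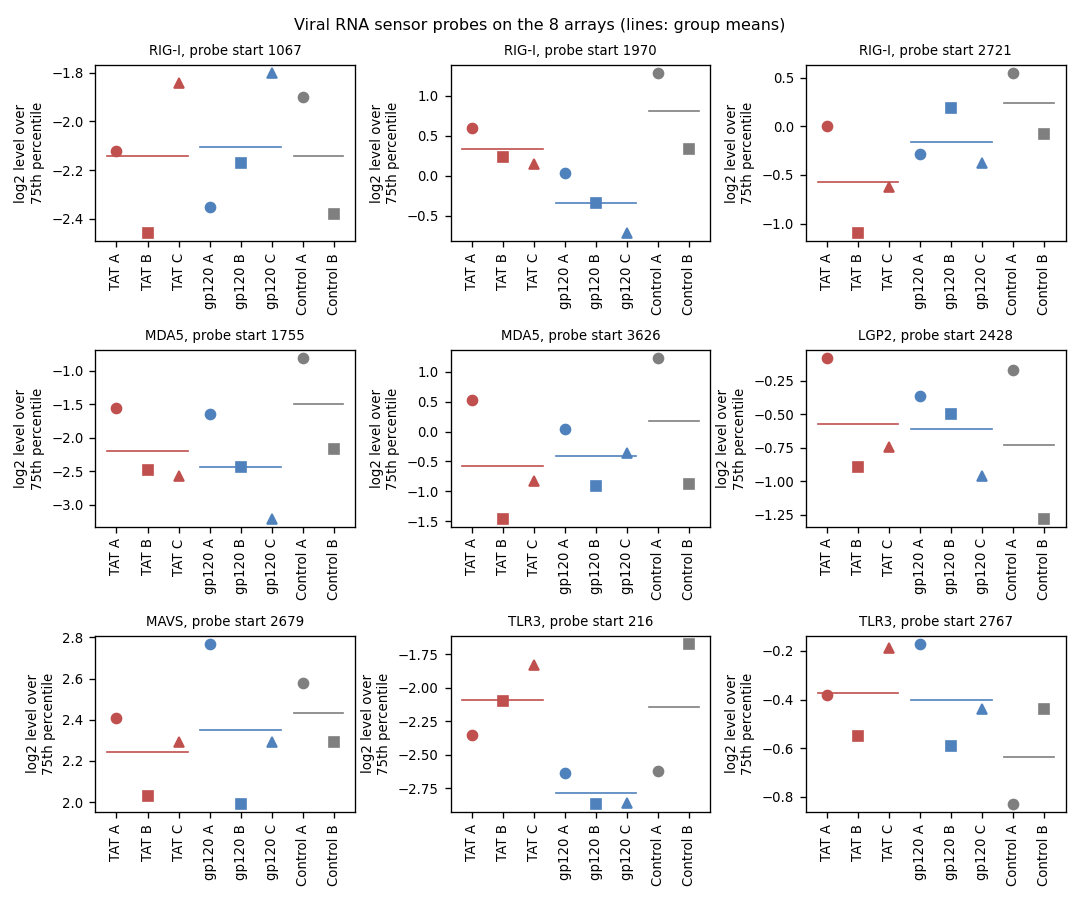
Log2 level over the 75th percentile of the array (vertical axis, its range differs between panels) of the 9 sensor probes kept for testing, on each of the 8 arrays; colours give the group, circles, squares and triangles the letters A, B and C, and lines the group means. On the middle RIG-I probe (start 1970) the gp120 arrays, at 0.03 to -0.72, lie below all others, and on the MDA5 probes the letter A array is the highest of its group.

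MDA5 was read by 3 probes on the plus strand of chromosome 2, of which 2 were well above background on all 8 arrays. The probe near the start of the transcript, at chr2:35282384-35282443, was well above background on control A only and was not tested. The middle probe maps to chr2:35326383-35326998, where its 60 bases span 616 bases and so cross a splice junction. The end probe maps to chr2:35337628-35337687 and is the brightest, and it has a stop codon in all 3 reading frames. The sequences of the start and middle probes are shown because they differ in whether the gene was detected at all, and no letters are marked.
MDA5 start probe: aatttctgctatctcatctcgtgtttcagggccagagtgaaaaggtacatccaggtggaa
MDA5 middle probe: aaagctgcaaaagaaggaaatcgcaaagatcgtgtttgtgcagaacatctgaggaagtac

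On the end probe MDA5 read 0.53, -1.46 and -0.82 in TAT cells, 0.04, -0.91 and -0.36 in gp120 cells and 1.23 and -0.87 in control cells. The groups overlapped, and in each the letter A array was the highest. The difference from control was -0.77 for TAT (SE 0.73, interval -2.46 to 0.93) and -0.59 for gp120 (SE 0.73, interval -2.29 to 1.1). Both turned positive without control A, at 0.29 and 0.46, and became -1.82 and -1.64 without control B. A block on slide row gave 0.02 and 0.19, and letter and scan as blocks together gave -0.63 (SE 0.16) and -1.16 (SE 0.21), so the value depended on which term was in the fit.

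The middle MDA5 probe read -1.56, -2.48 and -2.57 in TAT cells, -1.65, -2.43 and -3.21 in gp120 cells and -0.81 and -2.17 in control cells. Its differences from control were -0.71 (SE 0.57) for TAT and -0.94 (SE 0.57) for gp120, and -0.03 and -0.26 without control A. Within a letter, both MDA5 probes were below control in each of the 4 pairs of a treated and a control array. For the end probe these pair differences were -0.7 (A) and -0.59 (B) for TAT, and -1.2 (A) and -0.04 (B) for gp120. The letters as a replicate block gave -0.72 (SE 0.31) for TAT and -0.55 (SE 0.31) for gp120 on that probe.

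LGP2 was read by 2 probes that the array files place on no chromosome. The probe near the start of the transcript was well above background on 0 arrays. The other, spotted 2 times on each array, read -0.08, -0.89 and -0.74 in TAT cells, -0.36, -0.5 and -0.96 in gp120 cells and -0.17 and -1.28 in control cells. The groups overlapped in every comparison, and the controls alone spanned the whole range of the gp120 arrays. Differences were 0.15 for TAT minus control (SE 0.4) and 0.12 for gp120 minus control (SE 0.4). Both changed sign when 1 control was left out, to -0.4 and -0.44 without control B. The 2 spots of the probe differed by 0 to 0.35 log2 units on the same array, which bounds how well a single spot is read. Over all probes with 2 spots, the median gap per array was 0.085 to 0.139.

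MAVS was read by 1 probe, on the minus strand of chromosome 13 at chr13:51897966-51898025. It read 2.41, 2.03 and 2.29 in TAT cells, 2.77, 1.99 and 2.29 in gp120 cells and 2.58 and 2.29 in control cells. All groups overlapped. The difference from control was -0.19 for TAT (SE 0.28, interval -0.84 to 0.47) and -0.08 for gp120 (SE 0.28, interval -0.74 to 0.57). With scan as a block the gp120 value was 0.34, so no direction is given for the adaptor.

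TLR3, the endosomal sensor, was read by 3 probes on the plus strand of chromosome 27, at chr27:17492334-17492393, chr27:17494234-17494293 and chr27:17500312-17500371. The middle one was well above background on 3 arrays (TAT B, TAT C and control B) and was not tested, and the other 2 were so on all 8. The sequences are shown because the start and end probes disagree on gp120, and no letters are marked.
TLR3 start probe: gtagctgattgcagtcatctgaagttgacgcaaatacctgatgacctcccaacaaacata
TLR3 middle probe: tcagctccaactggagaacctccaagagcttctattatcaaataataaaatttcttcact
TLR3 end probe: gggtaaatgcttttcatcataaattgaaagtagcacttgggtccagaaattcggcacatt

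The start probe of TLR3 read -2.35, -2.1 and -1.83 in TAT cells, -2.64, -2.87 and -2.86 in gp120 cells and -2.62 and -1.67 in control cells. All gp120 arrays lay below all TAT and all control arrays, although gp120 A and control A differed by only -0.02. The difference was -0.64 for gp120 minus control (SE 0.32, interval -1.38 to 0.09) and 0.7 for TAT minus gp120 (SE 0.28, interval 0.04 to 1.36). Without control B the gp120 minus control value was -0.17, without control A -1.12 and with scan as a block -0.5. TAT minus control was 0.06 (SE 0.32).

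The end probe of TLR3, the brightest, read -0.38, -0.55 and -0.19 in TAT cells, -0.17, -0.59 and -0.44 in gp120 cells and -0.83 and -0.44 in control cells. Groups overlapped, and its differences from control were 0.26 for TAT (SE 0.25) and 0.23 for gp120 (SE 0.25, interval -0.34 to 0.8). TAT minus gp120 was 0.03 (SE 0.22, interval -0.48 to 0.53). The gp120 arrays were therefore set apart on 1 of the 2 TLR3 probes that could be read. The other was above control in letter A, by 0.66, and below it in letter B, by -0.16.

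Across all 9 tested probes of the 5 genes, limma called 0 in any of the 3 comparisons at an adjusted p of 0.05, as it called 0% of 12035 genes and 0% of 31153 probes. By the brightest of each gene's probes chosen by name, an unadjusted p under 0.05 was found for 0 of 5 genes in TAT minus control. It was found for 1 of 5 (RIG-I, on the middle probe) in gp120 minus control and for 0 of 5 in TAT minus gp120. The shares of all genes were 1.33%, 2.83% and 2.7%. The comparisons with control share the same control arrays. Groups did not overlap for 0 of the 9 probes in TAT minus control, where 14.1% of all kept probes had groups apart in either direction. For gp120 minus control 2 of 9 lay lower without overlap, against 7.67% of all kept probes, and for TAT minus gp120 2 of 9 lay higher, against 3.33%. Those 2 were in both cases the middle RIG-I probe and the start TLR3 probe. Nothing is read from these shares, because the genes were chosen with these values known.

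Pairs of arrays with the same letter gave a related picture. With TAT, 6 of 9 probes were below control in both letters, against 28.6% of all kept probes, and they were the 3 RIG-I probes, the 2 MDA5 probes and the MAVS probe. The LGP2 probe alone, 1 of 9, was above control in both letters, by 0.09 (A) and 0.39 (B), against 20.4% of all kept probes. With gp120, 4 of 9 were below control in both letters, against 24.7%, namely the middle RIG-I probe, both MDA5 probes and the start TLR3 probe. Between the 2 proteins, 2 of 9 probes were higher with TAT in all 3 letters, against 13.5%. They were the middle RIG-I probe, at 0.57 (A), 0.58 (B) and 0.87 (C), and the start TLR3 probe, at 0.3 (A), 0.77 (B) and 1.03 (C). In the letter B pairs with control, control B lies in row 1 of the slide and the treated arrays in row 2. In letters B and C the gp120 array is from the separate scan. With scan as a block, TAT minus gp120 was 0.3 on that RIG-I probe and 0.55 on that TLR3 probe.

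**Figure D2:**
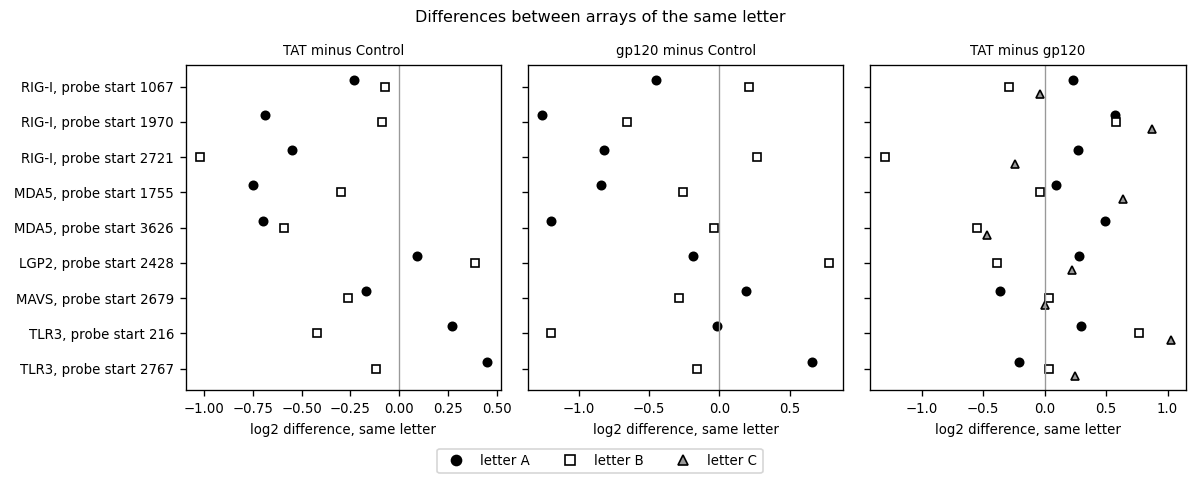
Log2 difference between 2 arrays of the same letter (horizontal axis) for each of the 9 kept sensor probes, 1 panel per comparison; filled circles are letter A, open squares letter B and grey triangles letter C. In the panel of TAT minus gp120 the middle RIG-I probe (start 1970) lies at 0.57 to 0.87 and the TLR3 start probe (start 216) at 0.3 to 1.03, to the right of 0 in all letters.

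For MDA5 the difference between letters was larger in size than that between the treated and control groups. Letter A minus letter B, from a fit with group as a term that was added after the values were seen, was 1.68 for the MDA5 end probe (SE 0.26, limma adjusted p = 0.0149 over all probes) and 1.02 for its middle probe (SE 0.21, limma adjusted p = 0.0317). On the end probe A exceeded B by 1.99 in TAT cells, 0.95 in gp120 cells and 2.1 in control cells, that is in 3 of 3 groups. On the middle probe the gaps were 0.92, 0.78 and 1.36. Of the 9 probes 2 were called higher in letter A, against 5.56% of all kept probes, and 0 were called lower, against 5.91%.

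The other sensors had smaller letter differences. The middle RIG-I probe was 0.56 higher in A (SE 0.19, limma adjusted p = 0.112), LGP2 0.68 (SE 0.22, limma adjusted p = 0.101) and MAVS 0.48 (SE 0.17, limma adjusted p = 0.121). For the TLR3 end probe A minus B was 0.06 (SE 0.21) and for its start probe -0.32 (SE 0.26). All letter A arrays lie in row 1 of the slide, whereas TAT B and gp120 B lie in row 2, so letter and row are partly confounded. Treatment and row are partly confounded too, since TAT B, TAT C, gp120 B and gp120 C lie in row 2 and no control does. Control A and control B share both row and scan, and their gap on the MDA5 end probe, 2.1, was the largest of the 3 groups.

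Genes downstream of the sensors shared this letter pattern in part. Of 17 interferon effector genes tested, 15 were higher in letter A, with a median of 0.58, and 6 of the 17 were called higher and 0 lower, against 7.32% and 8.37% of all genes. Among them RSAD2 (viperin, an antiviral enzyme of the endoplasmic reticulum) rose by 1.96 in letter A (limma adjusted p = 0.00956) and IFIT1, which binds viral RNA lacking cap methylation, by 1.51 (limma adjusted p = 0.0275). The transcription factors IRF7 and IRF1 were higher by 1 and 1.06 (limma adjusted p = 0.0157 and 0.0281), the kinase IKBKE by 1.49 (limma adjusted p = 0.00915) and the nucleic acid sensor ZBP1 by 1.58 (limma adjusted p = 0.019). Of 11 transcription factors 4 were called higher and 0 lower, the others being IRF5 (0.79) and JUN (0.69). Of 9 interferon receptors, kinases and regulators 1 was called higher (USP18, at 0.89) and 0 lower, and of 12 brakes 0 were called. IRF3 was not called, at -0.05, and neither was TBK1, at 0.04. Among the signal relay genes 1 of 24 was called higher in letter A (IKBKE) and 1 lower (PRKRA, at -0.83). Among other innate sensors, most but not all of them for nucleic acids, 4 of 19 were called higher and 1 lower (NOD2, at -0.7).

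Markers of some cell types moved with the letters too. Of 7 Müller glia and 7 fibroblast markers 0 were called, with medians of 0.12 and -0.05. Of 5 endothelial markers 1 was called higher in letter A, and of 4 retinal neuron markers 1 was called higher and 1 lower. Of 5 pericyte markers 4 were lower in letter A, with a median of -0.88, and 3 of the 5 were called lower, namely RGS5 at -3.03 (limma adjusted p = 0.00538), TAGLN at -1.54 (limma adjusted p = 0.00655) and ACTA2 at -0.88 (limma adjusted p = 0.0208). The mean log2 level of the 5 was 2.53, 3.27 and 2.92 in TAT cells, 2.25, 3.44 and 2.82 in gp120 cells and 1.6 and 3.07 in control cells. PRKRA, NOD2, IRF5, JUN and these 3 markers were picked out after their values were seen. Microglia and macrophage markers were higher in letter A in 13 of 15 cases, with a median of 0.39 and 0 called. The mean log2 level of these 15 markers was 4.06 to 4.22 in TAT cells, 3.8 to 4.52 in gp120 cells and 3.79 and 4.4 in control cells. The part of any cell type in the letter pattern was not tested.

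**Figure D3:**
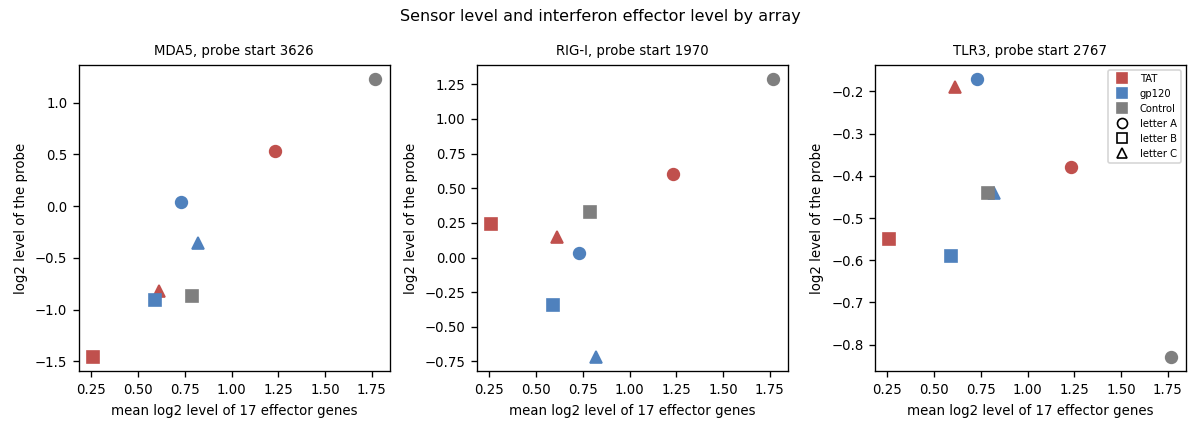
Log2 level of the MDA5 end probe, the RIG-I middle probe and the TLR3 end probe (vertical axes) against the mean log2 level of the 17 interferon effector genes (horizontal axis), 1 point per array; colours give the group and marker shapes the letter. Control A, with an effector mean of 1.77, has the highest MDA5 and RIG-I levels and the lowest TLR3 level.

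Array by array, the effector mean was 1.23, 0.26 and 0.61 in TAT cells, 0.73, 0.59 and 0.82 in gp120 cells and 1.77 and 0.79 in control cells. Control A and TAT A had the highest effector means and also the highest MDA5 levels on the end probe, and TAT B had the lowest of both. For RIG-I the highest arrays on the middle probe were again control A and TAT A, but gp120 C was the lowest, with an effector mean above that of control B. TLR3 on its end probe was lowest in control A.

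Genes around the sensors were followed through 6 lists, of which limma called 0 genes in any of the 3 comparisons, with or without the replicate block. Effectors stood below control in 16 of 17 cases with TAT (median -0.51) and in 15 of 17 with gp120 (median -0.3), where 55% and 51.9% of all genes tested lay below 0, with medians of -0.03 and -0.01. At an unadjusted p under 0.05, 1 effector was lower with TAT, against 0.848% of all genes, and 3 with gp120, against 1.83%. These counts rest on control A: without it 10 of 17 effectors lay below control with TAT (median -0.06) and 9 of 17 with gp120 (median -0.12), while without control B the medians were -0.95 and -0.82. Markers of other cells also stood to one side in these comparisons, with 0 called. Fibroblast markers were above control in 7 of 7 cases with TAT (median 0.82, with 3 at an unadjusted p under 0.05) and in 6 of 7 with gp120 (median 0.16), and pericyte markers in 5 of 5 with each (medians 0.54 and 0.45), and their part in the effector values was not tested. SAMD9, a cytosolic antiviral factor, read -1.77, -1.47 and -1.41 in TAT cells, -2.02, -3.07 and -2.84 in gp120 cells and -1.56 and -1.29 in control cells. All its gp120 arrays lay below all others, with a difference from control of -1.22 (SE 0.33) and of -0.12 with TAT (SE 0.33). The lowest arrays were gp120 B and gp120 C, those of the separate scan, and with scan as a block the gp120 value was -0.6. IFIT2, which binds viral RNA, differed by -1.65 with gp120 (SE 0.59) and by -0.7 with TAT (SE 0.59), and by -0.64 and 0.31 without control A. For the chemokine CXCL10 the larger difference was with TAT, at -1.42 (SE 0.49), against -0.81 with gp120 (SE 0.49). RSAD2 had differences of -1.45 with TAT and -2.33 with gp120 (SE 0.96 each), IFIT1 of -0.93 and -1.01 (SE 0.74 each), MX1 of -0.49 and -0.24 (SE 0.44 each) and ISG15 of -0.42 and -0.21 (SE 0.49 each).

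In the signal relay, 18 of 24 genes were below control with TAT (median -0.11) and 17 of 24 with gp120 (median -0.17). These relay counts depended on the fit. Leaving out control A gave 13 of 24 for each protein (medians -0.02 and -0.05). A term for slide row gave 11 for TAT and 12 for gp120 (median 0.02 each). A term for scan gave 10 for gp120 (median 0.03) and left the TAT count at 18. The counts stayed at 18 and 17 when control B was left out, and the replicate block gave 16 and 18. DDX3X, a helicase that assists TBK1, read 0.53, 1.01 and 0.91 in TAT cells, 0.55, -0.67 and -0.5 in gp120 cells and 1.06 and 1.02 in control cells. Its difference from control was -1.25 with gp120 (SE 0.37), with gp120 B and gp120 C, the arrays of the separate scan, the lowest, and -0.22 with TAT (SE 0.37). With scan as a block the gp120 value was -0.49, and the other kept DDX3X probe gave 0.19 (SE 0.26). UNC93B1, the chaperone that brings TLR3 and other nucleic acid receptors to endosomes, read 0.2, 0.42 and 0.21 in TAT cells, 0.61, 1.05 and 1.33 in gp120 cells and -0.05 and 0.44 in control cells. All its gp120 arrays lay above all others, with a difference of 0.8 (SE 0.27), or 0.42 with scan as a block. MFN1, a mitochondrial fusion protein that binds MAVS, differed by 0.44 with TAT and 0.3 with gp120 (SE 0.22 each), and TRAF5, a MAVS adaptor, by -0.52 and -0.14 (SE 0.28 each).

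Transcripts of direct partners of the sensors gave the following values. TRIM25, a ubiquitin ligase of RIG-I, differed by -0.08 with TAT and -0.28 with gp120 (SE 0.3 each), and RNF135 (Riplet), the other ligase, by -0.09 and -0.2 (SE 0.33 each). Each of these ligases had 3 kept probes, of which only 1, the brightest, was below control in either comparison. TICAM1, the adaptor of TLR3, differed by -0.17 and -0.18 (SE 0.29 each), TBK1 by -0.24 and -0.25 (SE 0.18 each) and IKBKE by -0.19 and -0.26 (SE 0.65 each). Among 12 brakes of the pathway, 8 were below control with TAT (median -0.11) and 6 with gp120 (median 0.03). RNF125, a ligase that marks RIG-I for degradation, differed by -0.43 and -0.6 (SE 0.35 each), TAX1BP1, an adaptor of the deubiquitinase A20, by -0.31 and -0.51 (SE 0.31 each), USP21, which removes ubiquitin from RIG-I, by 0.39 and 0.24 (SE 0.25 each), and NLRX1, a mitochondrial protein that binds MAVS, by -0.17 and 0.25 (SE 0.4 each).

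Of 11 transcription factors, 9 were below control with TAT (median -0.09) and 7 with gp120 (median -0.09). These counts rest on control A: without it they were 5 with TAT and 3 with gp120 (median 0.07 each). Without control B they were 9 with each protein (median -0.25 each). IRF7 differed by -0.54 with TAT and -0.63 with gp120 (SE 0.47 each), IRF1 by -0.35 and -0.54 (SE 0.5 each), NFKB1 by -0.09 and -0.5 (SE 0.33 each) and IRF3 by -0.07 and 0.26 (SE 0.22 each). Among 9 interferon receptors, kinases and regulators the medians were -0.04 and 0.13. IFNAR1, a chain of the type I interferon receptor, differed by 0.26 with TAT and 0.72 with gp120 (SE 0.32 each), and USP18, which dampens signalling from that receptor, by -0.6 and -0.7 (SE 0.44 each). IL10RB, a shared cytokine receptor chain, differed by -0.17 and 0.12 (SE 0.17 each) and JAK1 by -0.04 and 0.17 (SE 0.19 each). IFNB1 was not matched by name and was not analysed here.

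The other innate sensors, most but not all of them for nucleic acids, were below control in 16 of 19 cases with TAT (median -0.22). With gp120 they were so in 12 of 19 (median -0.06). EIF2AK2 (PKR, a kinase activated by double-stranded RNA) read 1.04, 0.69 and 1.06 in TAT cells, 0.61, 0.53 and 0.06 in gp120 cells and 1.16 and 0.74 in control cells. All its gp120 arrays lay below all others, with a difference from control of -0.55 (SE 0.26), or -0.34 with scan as a block, against -0.02 with TAT (SE 0.26). The endosomal receptors of single-stranded RNA stood the other way: TLR8 differed by 0.61 with gp120 (SE 0.31) and -0.22 with TAT (SE 0.31), and TLR7 by 0.5 and 0.15 (SE 0.28 each). All gp120 arrays lay above both controls for TLR8. For TLR7 only gp120 B and gp120 C of the separate scan did, at 1.06 and 1.23, while gp120 A, at 0.52, lay between the controls (0.26 and 0.61). ZC3HAV1 (ZAP), which binds CpG-rich RNA, differed by -0.41 with TAT and -0.79 with gp120 (SE 0.35 each), and the helicase DHX36 by -0.42 and -0.78 (SE 0.43 each). In the DNA route, CGAS differed by -0.41 and -1.03 (SE 0.61 each) and STING1 by 0.82 and 0.75 (SE 0.51 each). For CGAS gp120 A, at -4.3, lay between the controls (-3.89 and -5.03), and only gp120 B and gp120 C of the separate scan lay lower (-6.02 and -6.13). STING1 read -2.93, -1.32 and -1.79 in TAT cells, -2.75, -1.64 and -1.88 in gp120 cells and -2.75 and -2.92 in control cells. Its higher arrays all lie in slide row 2, which holds no control. ZBP1 differed by -0.6 and -0.29 (SE 0.71 each).

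**Figure D4:**
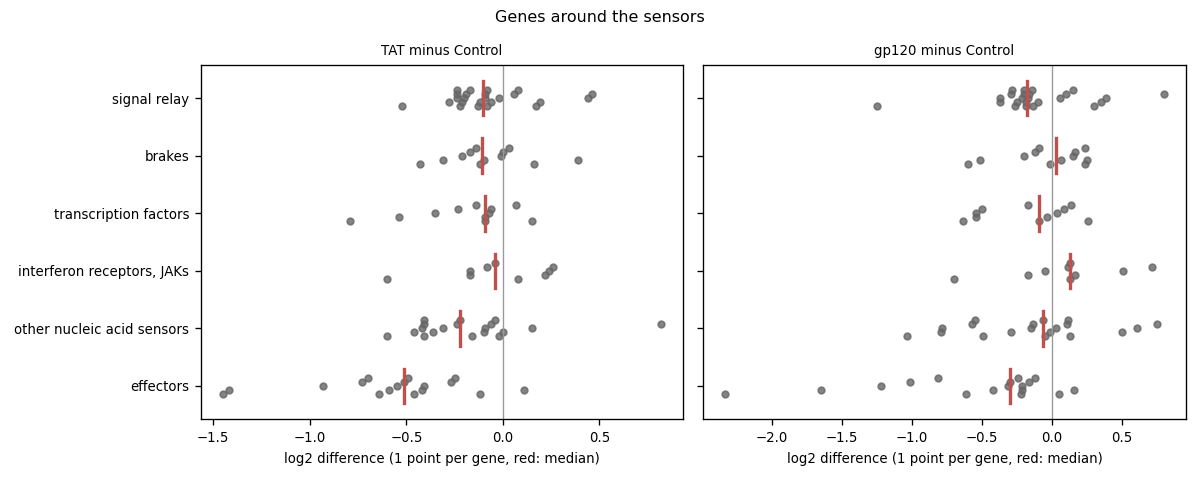
Log2 difference from control (horizontal axis) of each tested gene in the 6 lists around the sensors, TAT on the left and gp120 on the right; each grey point is 1 gene and each red bar a list's median. Effectors lie furthest to the left, with medians of -0.51 for TAT and -0.3 for gp120, and limma called 0 of the genes shown.

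Genes with the most similar pattern over the 8 arrays were ranked by Pearson's r to the brightest probe of each member, as a description of arrays that share letters, rows and scans. For MDA5 they were RIN2 (r = 0.99) and IFIT3, ZBP1, RBM43 and TRAPPC6B (r = 0.98 each). For RIG-I they were LDHAL6B and AASDHPPT (0.97), FMO2 and GPATCH4 (0.96) and EXOC3L2 (0.95). LGP2 was closest to HS3ST2, AZU1, RSL24D1 and TXN (0.98) and NAGLU (0.96), MAVS to ATG16L2, NRROS, ATAD2B and DAZAP2 (0.98) and SKAP2 (0.97), and TLR3 to HIF3A (0.96), GABBR1 (0.92), FPGT and SERTAD4 (0.91) and SLA (0.88). After the mean of each letter was removed, the gene nearest to RIG-I was IFIT2 (r = 0.99), followed by TOMM5, RALA, PDS5B and SLFNL1 (0.98 each). MDA5 was then nearest to GMPS (1), LGP2 to DHODH (0.99), MAVS to DNAJC12 (0.98) and TLR3 to AMOTL2 (0.98).

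The authors' deposited table holds 1 log2 value per gene name, and for 3 of the 5 genes that value left the mean of the always detected probes on some arrays. On gp120 B and gp120 C its values lay within 0.02 of the mean of the probes above background for 100% of the 3259 and 3370 genes where only some probes were above it. On the other 6 arrays that held for 17.5% of such genes at most. There, genes with 1 probe also lay a median of 0.056 to 0.188 from the scanner value, against 0.001 on gp120 B and gp120 C. A limit of 0.02 therefore cannot decide between probe rules on those 6 arrays. Of the genes with only some probes above background, 84.2% to 90.6% lay nearer to the mean of those probes than to that of all probes. How the value was formed there is not known. Over all arrays, 35.2% of 10884 gene names with 2 or more probes had different probes above background on different arrays. For MDA5 the value in the authors' deposited table, after a shift per array, lay 1.53 below the mean of its 2 always detected probes on TAT A and 1.62 below on control A, and within 0.04 of it on the other 6 arrays. For TLR3 it lay 1.09 below on TAT B, 1.19 below on TAT C and 1.18 below on control B, and for LGP2 1.29 below on TAT C. On the 3 TLR3 arrays and on control A for MDA5 every probe of the gene was above background, whereas on TAT A 2 of 3 MDA5 probes and on TAT C 1 of 2 LGP2 probes were. The values there lay within 0.1 (MDA5, TAT A) and 0.19 (LGP2, TAT C) of the mean over all spots of the gene.

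These gaps changed signs between groups. For TLR3, TAT minus gp120 was -0.41 in the authors' deposited table and 0.36 over the 2 fixed probes, and gp120 minus control was 0.41 in the authors' deposited table and -0.21 over the fixed probes. For MDA5, gp120 minus control was 0.04 in the authors' deposited table and -0.76 over the fixed probes. For LGP2, TAT minus control was -0.28 in the authors' deposited table and 0.16 on the fixed probe. RIG-I and MAVS differed little: gp120 minus control for RIG-I was -0.53 in the authors' deposited table and -0.5 over its 3 fixed probes, and for MAVS it was -0.08 in both.

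**Figure D5:**
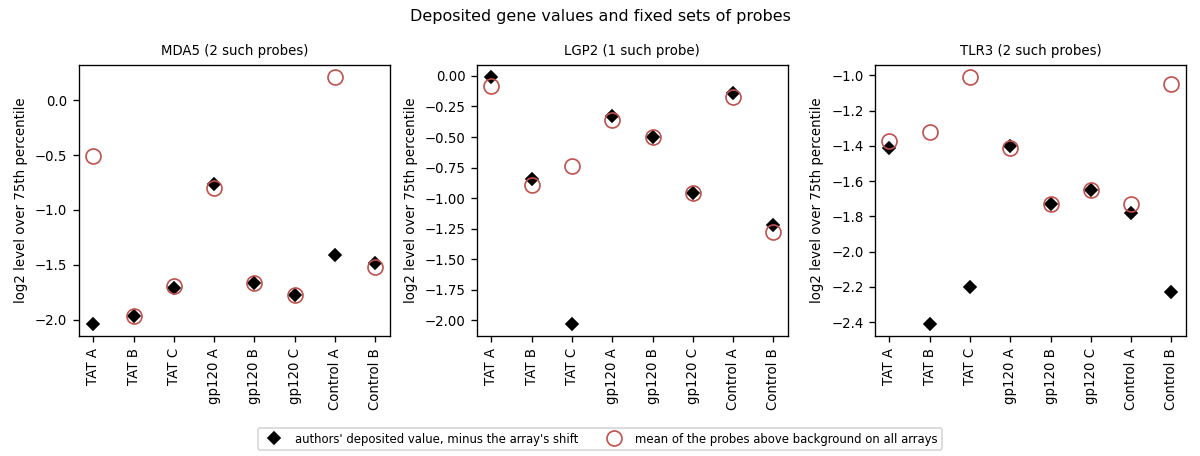
Log2 level over the 75th percentile of the array (vertical axes) of MDA5, LGP2 and TLR3 on each of the 8 arrays; black diamonds are the authors' deposited values after a shift per array, and red circles the mean of the probes well above background on all arrays. Diamonds lie more than 1 below the circles on TAT A and control A for MDA5, on TAT C for LGP2 and on TAT B, TAT C and control B for TLR3.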

How the data were processed

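RNA of each of the 8 samples was labelled with Cy3 and hybridised to 1 array of an Agilent bovine design (029411). Per the file headers, the authors obtained the intensity values from Agilent Feature Extraction (version 11.5.1.1, protocol GE1_1105_Oct12). That software removes background and spatial trend within an array, and the values are not scaled between arrays. The authors' deposited table gives 1 log2 value for each gene name. The way that value was computed is not given in sources used here, and the table served as an alternative. Its scale and direction follow from a match to the scanner values, its column medians were -3.33 to -3.18, and its centring between arrays stays unknown.

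Outlier spots (4 to 37 per array) and control spots were left out, spots of a probe were averaged, and log2 values were set relative to the 75th percentile of the array. The filter asked that a probe stand well above background on all arrays of 1 or more groups, which 31153 of 51282 probes did, and the brightest probe of each of 12035 genes was taken for gene-level counts. Of the 12 probes of the sensor genes, 9 passed, all of them on all 8 arrays. Probes of other genes were named by RefSeq accession, symbol or synonym.

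Comparisons used lmFit and eBayes of limma 3.58.1 under R 4.3.3 (all arrays in 1 fit, two-sided, Benjamini-Hochberg over all genes or all probes, threshold 0.05), which was tested on simulated data. The main fit of these comparisons, used where no block is named, held no letter term. Letters were treated as pairing in the same-letter differences and the replicate block. The correlation of deviations from group means was 0.38 to 0.74 in all 7 same-letter pairs and -0.65 to 0.42 in the 14 others. That is weak ground for pairing. Deviations of the 2 controls mirror each other, and control B matched TAT C (0.42) about as well as TAT B (0.41). Alternatives were normexp (offset 50), quantile and median scaling, other filters and probe rules, the deposited table, blocks and batches, and each array left out. The letter comparison and the fixed sets of probes were added after seeing the data. The genes and lists were chosen with earlier results of these data known. Named genes are all 5 sensors with every probe, up to 4 genes per list with the smallest unadjusted p over the comparisons, 19 further genes of the pathway fixed by name, and the 5 genes nearest in pattern to each sensor over the arrays (for 4 sensors only the nearest after removing letter means). One gene under this rule is not reported here.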

Additional observations from a re-analysis of the deposited data

How the results depend on the processing

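Limma called 0 genes in each of the 3 comparisons, and so it did under every alternative but those named here. With the deposited table it called 4 genes for TAT minus control, 4 for gp120 minus control and 16 for TAT minus gp120, none of them a sensor or a gene of the lists. With 1 array left out the counts were 0 to 1 for TAT minus control and 0 to 1 for gp120 minus control (ZNF362, without control A), and 0 to 3 for TAT minus gp120 (DUSP16, FBXW11 and TCHP, without gp120 A). Over all kept probes they were 0 to 2 and 0 to 1 for the comparisons with control, both highest without control A, and these genes were singled out after their values were seen. With the replicate block 0 genes were called in each comparison, and 582, 730 and 988 genes had an unadjusted p under 0.05, against 160, 341 and 325 without it. The block changed no call. For the brightest probes of the 5 genes, 41 of 335 values under an alternative had the opposite sign and 37 moved by at least the spread within groups. The 335 include values that could not change, such as those without an array of the third group or under another filter on dim probes. The share that changed sign is therefore understated. RIG-I stayed below control with gp120 under all 22 alternatives, from -1.63 to -0.57. All of them but the deposited table and the median of the RIG-I probes use the middle probe alone. For the same comparison the end probe gave -0.39, the start probe 0.03 and the probes outside the choice by name -0.01 and 0.32. For RIG-I, TAT minus gp120 became -0.13 with the median of the probes. Groups of 3, 3 and 2 arrays limit what could be called.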
